A study of Arabidopsis thaliana with 60 samples.

Results

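A late and an early rosette leaf of *Arabidopsis thaliana*, thale cress, were compared at the same size. Leaf 12, labelled as about 1 cm long, was set against leaf 4, labelled as 1 cm long. Each leaf was measured on 3 arrays, so 6 of the 60 arrays of the leaf series enter the comparison, chosen by their titles and tissue labels. Both were taken from Col-0 plants in soil, kept under constant light at 23 °C and 65% relative humidity. For leaf 12 the labels add that 20 plants flowered with 11.1 ± 0.8 rosette leaves and 2.8 ± 0.6 cauline leaves. Leaf number 12 thus lay above the mean number of rosette leaves at flowering. For leaf 4 the labels say that the tissue had soil on it. Plant age and hour of sampling are not given in the labels of either leaf, so the position of the leaf and the age of the plant cannot be told apart here. Nothing in the labels says that the 3 arrays of a leaf hold different plants. The p-values rest on the scatter among arrays within groups, pooled over all 20 groups of the series, and that scatter may be technical.

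A second pair of leaf positions came from a line labelled gl1T, with Col-0 given as the background of its leaf 12. These leaves, leaf 4 at 1 cm and a leaf 12 whose length is not labelled, grew in the same light, temperature and humidity, on 3 arrays each. What gl1T carries is not spelled out in the labels. No array is shared between the Col-0 and the gl1T comparison. Vegetative rosettes of Col-0 from short days, sampled for phase change according to the labels, gave a further comparison without shared arrays, set 90 minus set 87. The ages of these sets are not labelled, so the order of the subtraction is one of set numbers only.

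Rosette leaves change along the stem even when they are compared at one size. Early leaves are juvenile and later ones adult, a change that depends on microRNAs, with miR156 holding back the SPL transcription factors and miR172 later holding back the AP2-like floral repressors. Adult leaves of *Arabidopsis* carry trichomes on the lower side and are longer and more toothed, and the last leaves before the flowering stem form while the shoot apex is being induced to flower. Leaf cells also answer touch, wounding and microbes within minutes with a set of early genes, among them zinc finger, WRKY and ERF transcription factors and calmodulin-like calcium sensors.

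Signals are MAS5 intensities per probe set on a linear scale, one value per array. Differences are leaf 12 minus leaf 4 on the scale log2(signal + 6.139), given with the standard error of a linear model fitted to all 60 arrays with limma. A gene rose or fell where its Benjamini-Hochberg adjusted p over 15808 tested probe sets was below 0.05 and its difference at least 1. The added constant lies at the 20th percentile of a typical array, so differences of genes with low signals are understated, and the fold behind a log2 difference is on that scale. RNA came from whole leaves. Fewer cells of a type and less RNA per cell therefore cannot be told apart.

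The 6 arrays grouped by leaf. Within leaf 12 the lowest correlation of log2 signals between arrays was 0.971, within leaf 4 it was 0.973, and between the leaves it lay from 0.953 to 0.958. Median signals were 36.4 to 38.4 in leaf 12 and 35.6 to 36.6 in leaf 4. The ratio of 3' to 5' signal, a measure of RNA integrity, was 1.31 to 1.53 and 1.08 to 1.41 for the GAPDH control and 4.99 to 10.7 and 3.95 to 8.34 for the actin control. The ranges of both ratios and of the median signals overlapped between the leaves. The labelled tissue was checked with mesophyll genes. The summed signal of 3 of the 7 listed mesophyll markers was 9256 to 9903 in leaf 12 and 9292 to 10300 in leaf 4, with differences of -0.07 ± 0.088 for the Rubisco activase RCA, -0.03 ± 0.066 for the phosphoribulokinase PRK and -0.05 ± 0.070 for SBPASE, an enzyme of the Calvin cycle. The stem cell gene CLV3, a marker of the shoot apex, lay between 1.72 and 2.44 on all 6 arrays. Of the 8 listed root genes, 2 had a probe set of their own. PYK10, an abundant root beta-glucosidase, had signals of 17.4 to 31.4 in leaf 12 and 49.9 to 53.8 in leaf 4 (-0.99 ± 0.19, adjusted p = 1.87e-05), and EXP7 of root hairs had 10.6 to 16.8 and 6.203 to 22.1. No listed marker of flowers, phloem, xylem or of epidermis and trichomes had a named probe set. Only leaf 4 was labelled as soiled, and the part of that in any result was not tested.

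Of the 15808 probe sets, 531 (3.36%) rose in leaf 12 and 192 (1.21%) fell, 4.57% in all. The median difference over all tested probe sets was -0.02. Changes of at least 4-fold were counted for 112 probe sets that rose and 18 that fell. The 3 arrays of one leaf lay wholly above or below those of the other for 46.2% of tested probe sets, and for 721 of the 723 called ones. Among the 8517 named genes tested, each read from its brightest probe set, 256 rose and 65 fell.

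The early touch, wound and defence genes were higher in leaf 12. All 6 measured genes of the 21 listed rose in leaf 12, with a median difference of 2.35. This list was put together with earlier results on these leaves known, so the count describes the genes and is not independent evidence. Their summed signal was 1368 to 1483 in leaf 12 and 206 to 232 in leaf 4, so no array of one leaf came near the other.

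STZ (AT1G27730), a zinc finger repressor of salt and drought responses, had signals of 794, 796 and 896 on the leaf 12 arrays and 64.0, 67.0 and 78.2 on the leaf 4 arrays. The difference was 3.46 ± 0.085 (adjusted p = 6.16e-37 in limma). By mean STZ signal, leaf 12 ranked 3 and leaf 4 at 1 cm ranked 17 among the 20 groups of the series. Apart from leaf 4 at 1 cm, the Col-0 groups grown on soil in continuous light had mean STZ signals from 403 in the petiole of leaf 7 to 1436 in the cotyledons. The short-day sets 87, 89 and 90 were lower than leaf 4, at 52.6, 30.5 and 49.0.

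The calmodulin-like calcium sensor CML38 (AT1G76650) showed the same split, with 131, 143 and 143 in leaf 12 and 9.74, 16.4 and 9.16 in leaf 4 (3.04 ± 0.13, adjusted p = 3.41e-26). Its mean in leaf 4, 11.8, was the lowest of the 20 groups, and the highest was 478 in cotyledons. Its relative CML37 (AT5G42380) had 32.9, 32.4 and 36.4 in leaf 12 against 0.996, 2.71 and 2.20 in leaf 4 (2.31 ± 0.19). The leaf 4 values of CML37 are below the added constant, so this difference in particular is understated.

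WRKY53 (AT4G23810), a transcription factor of defence and of leaf senescence, had 116, 111 and 127 in leaf 12 and 18.1, 18.2 and 16.8 in leaf 4 (2.38 ± 0.084). The ubiquitin ligase gene PUB23 (AT2G35930), a brake on immune signalling, had 59.9, 66.8 and 53.9 against 14.4, 10.6 and 12.3 (1.84 ± 0.18). ORA47 (AT1G74930), an ERF-type factor that acts on jasmonate synthesis, had 235, 264 and 227 against 106, 91.3 and 113 (1.18 ± 0.10). None of these genes had overlapping arrays, which also held for 46.2% of all tested and 721 of the 723 called probe sets. The change was smallest in ORA47.

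In gl1T the same 6 genes ran the other way. All 6 fell from leaf 4 to leaf 12 of that line, with a median difference of -2.38, where 1.97% of all tested probe sets rose and 2.2% fell. Their summed signal was 234 to 280 in gl1T leaf 12 and 1608 to 1627 in gl1T leaf 4. STZ had 105, 124 and 137 in gl1T leaf 12 and 794, 841 and 802 in gl1T leaf 4. The high group in gl1T was thus leaf 4, at about the signal of leaf 12 in Col-0. CML38 had 14.8, 16.1 and 11.7 in gl1T leaf 12 and 146, 135 and 149 in gl1T leaf 4, again the mirror image of Col-0.

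**Figure D1:**
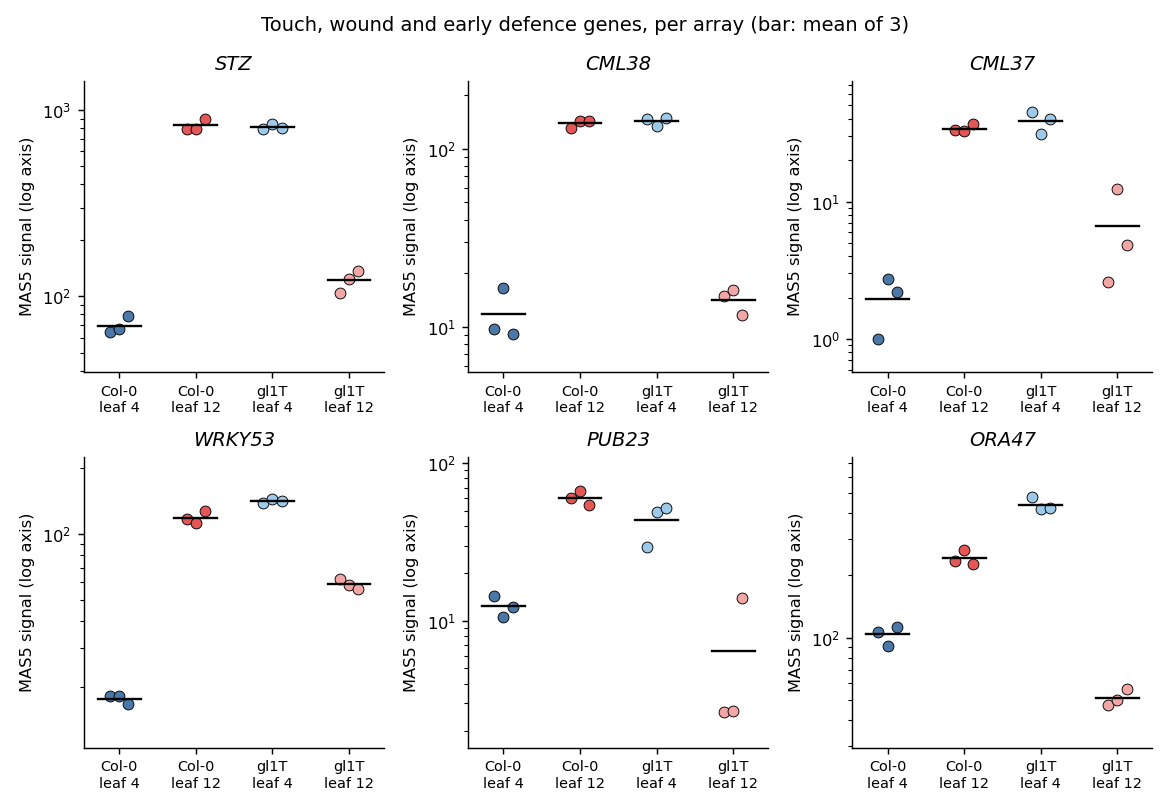
MAS5 signal (log axis) of 6 early touch, wound and defence genes on each array of leaf 4 and leaf 12 in Col-0 and gl1T, with 3 points per group and a bar at their mean. In Col-0 the points of leaf 12 lie above those of leaf 4 for all 6 genes, and in gl1T they lie below.

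The difference between the lines was itself tested, as Col-0 minus gl1T of the leaf 12 to leaf 4 difference. It passed for all 6 genes and was 6.15 ± 0.12 for STZ, 5.92 ± 0.19 for CML38, 4.17 ± 0.27 for CML37, 4.13 ± 0.15 for ORA47, 3.90 ± 0.26 for PUB23 and 3.56 ± 0.12 for WRKY53. Over all tested probe sets 8.2% passed this test. Leaf numbers, light and temperature are labelled alike in both lines, and neither the hour nor the handling at harvest is given, so a difference of line and one of sampling cannot be told apart for these genes.

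Other genes, chosen after their values were seen, rose in Col-0 and differed among themselves in gl1T. AT1G19020, AT3G10930, AT1G05575 and AT3G02840, which the annotation gives by locus code only, were among the 12 largest increases of named genes, at 3.51 ± 0.16, 3.15 ± 0.20, 3.10 ± 0.13 and 2.89 ± 0.20. In gl1T they fell, by 1.72, 2.93, 2.00 and 2.59. WRKY22 (AT4G01250), a factor downstream of the flagellin receptor, rose to 85.7 ± 4.76 (SD, n = 3) from 32.1 ± 5.32 (1.27 ± 0.11) and fell by 1.13 in gl1T. With WRKY53 it made up the 2 of 6 measured WRKY factors that rose, the other four having differences from -0.15 to 0.47. PUB22 (AT3G52450), a close partner of PUB23, rose by 1.55 ± 0.18, and the receptor kinase gene EFR (AT5G20480), which detects bacterial elongation factor Tu, by 1.44 ± 0.27. Neither passed in gl1T, where PUB22 was at -0.80 and EFR at 0.13. SRC2 (AT1G09070), a membrane protein with a C2 domain, rose by 1.32 ± 0.12 and fell by 1.33 in gl1T, and the tetraspanin gene TET8 (AT2G23810) rose by 1.63 ± 0.075 and fell by 1.18.

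Defence genes of the jasmonate branch did not move as a group. OPCL1 (AT1G20510), a ligase of the last steps of jasmonate synthesis, rose from 115 ± 1.83 to 303 ± 13.6 (1.35 ± 0.067). In the list of jasmonate and pathogen response, 4 of 12 genes were measured, 1 rose, 1 fell and the median was -0.44. The defensin gene PDF1.2 (AT5G44420), a marker of combined jasmonate and ethylene signalling, fell. Its signals were 23.7, 21.9 and 19.7 in leaf 12 and 55.7, 57.7 and 54.0 in leaf 4 (-1.15 ± 0.14, adjusted p = 7.23e-10). It fell by 1.32 in gl1T as well, from a higher level, and its close copy PDF1.2b had a difference of -0.80 ± 0.20 in Col-0. The copies differed in gl1T, where PDF1.2b fell by 2.49, and the test between the lines passed for PDF1.2b (1.69 ± 0.28) and not for PDF1.2 (0.16 ± 0.19). The osmotin gene OSM34 was at 2.80 and 3.12, too dim for a reading.

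The riser of this list was THI2.1 (AT1G72260), which encodes a small antimicrobial peptide, a thionin, and it had the largest increase of any named gene in the comparison. Its signals were 252, 269 and 284 in leaf 12 and 13.2, 15.9 and 7.08 in leaf 4. The difference was 3.95 ± 0.20 (adjusted p = 1.2e-23). Unlike the early genes, THI2.1 rose as much in gl1T, with 319, 319 and 308 in leaf 12 and 12.7, 10.7 and 10.5 in leaf 4 (4.21 ± 0.20), and the test between the lines gave -0.26 ± 0.28. Along the Col-0 rosette its mean was 9.32 to 18.3 in leaves 2, 4, 6 and 8, 41.9 in leaf 10 and 268 in leaf 12. It was 8.68 in cauline leaves and 242 in the short-day set 90. The related THI2.2 (AT5G36910) fell, at 21.8, 40.4 and 12.4 in leaf 12 and 53.2, 57.1 and 52.2 in leaf 4 (-1.06 ± 0.28), and without the third leaf 12 array its difference was -0.74 and no longer passed.

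Of the flowering genes, 7 of 34 listed had a probe set of their own and 5 were bright enough to be tested. The 2 that rose were MADS-box genes, and their arrays did not overlap between the leaves, as for 46.2% of all tested probe sets. AGL42 (AT5G62165), a relative of SOC1 that promotes flowering, had signals of 90.6, 106 and 82.2 in leaf 12 and 4.71, 0.710 and 3.40 in leaf 4. The difference was 3.46 ± 0.22 (adjusted p = 2.73e-19). In gl1T it had 77.3, 63.6 and 64.6 in leaf 12 and 5.85, 4.71 and 5.13 in leaf 4 (2.71 ± 0.22), and the lines did not pass the test of their difference (0.75 ± 0.31). Its mean in Col-0 was 7.18 in leaf 2, 7.58 in leaf 4, 9.71 in leaf 6, 11.1 in leaf 8, 35.7 in leaf 10 and 92.8 in leaf 12, and it was 241 in cauline leaves, the highest of the 20 groups. In the short-day sets it stayed between 2.62 and 3.23.

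AGL24 (AT4G24540), a MADS-box promoter of flowering that acts with SOC1, had 86.4, 107 and 104 in leaf 12 and 39.6, 32.2 and 25.7 in leaf 4 (1.46 ± 0.19, adjusted p = 1.19e-08). The rise was 1.599 ± 0.19 in gl1T, where the arrays read 88.1, 96.1 and 98.9 against 25.7, 24.5 and 31.1. AGL24 differed from AGL42 in other groups. Its cauline mean was 21.4, and between the short-day sets it moved from 1.32 in set 87 to 46.2 in set 89 and 102 in set 90.

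The other flowering genes did not pass. GI, a clock-linked regulator of photoperiodic flowering, was at 71.2 ± 4.78 in leaf 12 and 127 ± 6.62 in leaf 4 (-0.79 ± 0.12, adjusted p = 3.14e-07), and at -0.85 in gl1T. The MADS-box gene AGL19 was at 14.8 ± 0.514 and 7.34 ± 3.49 (0.67 ± 0.21, adjusted p = 0.0107), and passed with a constant of 1 in place of 6.139 (1.03). FD, the bZIP partner of FT, was at 14.6 ± 4.31 and 9.82 ± 2.62 (0.37 ± 0.30). AGL71 and AGL72, the nearest relatives of AGL42, were below the brightness limit in all groups, at 0.960 to 5.11 and 0.737 to 9.60 on the 6 arrays. The median of the 5 tested genes was 0.67. Counted as a family, 13 MADS-box genes were measured, 2 rose, none fell and the median was 0.08.

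Of the AP2-like repressors, 2 of 6 listed genes were measured, and 1 fell. SNZ (AT2G39250), a floral repressor under miR172, had 18.3, 20.2 and 12.8 in leaf 12 and 51.8, 71.0 and 49.2 in leaf 4 (-1.45 ± 0.17, adjusted p = 6.1e-10). In gl1T the arrays read 33.8, 30.8 and 33.8 in leaf 12 and 40.05, 35.2 and 49.3 in leaf 4 (-0.28 ± 0.17). The test between the lines passed for SNZ, at -1.17 ± 0.24. Along the Col-0 rosette SNZ stood at 49.9 in leaf 2, 23.8 in leaf 4, 18.2 in leaf 6, 15.2 in leaf 8, 16.1 in leaf 10 and 17.1 in leaf 12, and at 66.7 in the pooled leaves 1 and 2. The leaf 4 sample of this rosette series was thus below the separate 1 cm sample of leaf 4, which had 57.4. SMZ (AT3G54990), its close relative, was dim and had 18.2, 8.39 and 10.3 in leaf 12 and 12.4, 15.1 and 14.8 in leaf 4 (-0.17 ± 0.18, adjusted p = 0.518), with overlapping arrays.

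**Figure D2:**
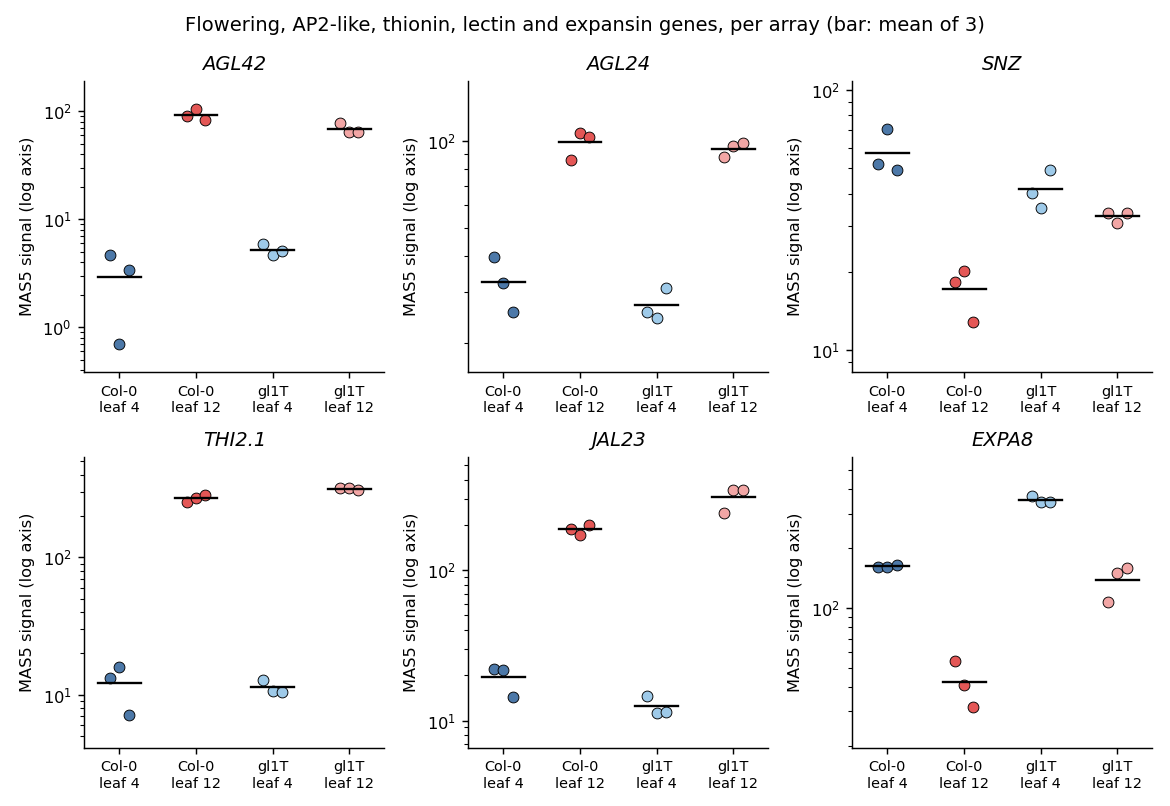
MAS5 signal (log axis) on each array of leaf 4 and leaf 12 in Col-0 and gl1T for the flowering genes AGL42 and AGL24, the repressor SNZ, the thionin gene THI2.1, the lectin gene JAL23 and the expansin gene EXPA8, with 3 points per group and a bar at their mean. AGL42, AGL24, THI2.1 and JAL23 are higher in leaf 12 in both lines, EXPA8 is lower in both, and SNZ is lower in Col-0 by more than in gl1T.

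Most of the listed regulators of the juvenile to adult change could not be read. Of the 17 listed SPL loci only AT1G76580 had a probe set of its own. Whether this locus is under miR156 was not examined, so its value does not stand for the SPL factors that miR156 holds back. It was at 40.4 ± 6.15 in leaf 12 and 32.8 ± 2.18 in leaf 4 (0.25 ± 0.12, adjusted p = 0.114). Among the small RNA genes, SE, which serves miRNA processing, was at -0.33 ± 0.17, AGO7, the Argonaute that binds miR390, at -0.53 ± 0.19 and the cyclophilin gene SQN at -0.60 ± 0.25, and none of the 3 passed. Among the trichome genes none of 4 passed. TRY, an inhibitor of trichome fate, was at -0.77 ± 0.21 in Col-0 and rose by 1.06 in gl1T, and the test between the lines passed (-1.83). The cell cycle inhibitor SIM was at 0.72 ± 0.15, ATMYC1 at 0.33 ± 0.15 and GIS at 0.24 ± 0.14.

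Part of the changes were shared by the lines. In gl1T 1.97% of all tested probe sets rose and 2.2% fell. Of the 531 probe sets that rose in Col-0, 63 also rose in gl1T, which is 11.9% of the Col-0 and 20.2% of the gl1T increases, and 179 fell in gl1T. Of the 192 that fell, 12 also fell in gl1T, 6.25% of the Col-0 and 3.46% of the gl1T decreases, and 5 rose. The test of the line difference passed for 428 of the 531, for 130 of the 192 and for 8.2% of all tested probe sets. The Col-0 difference that chose the 531 and the 192 is 1 term of that test. Their shares are therefore not to be read against that of all probe sets. The median gl1T difference was -0.57 over the 531 and -0.06 over the 192, beside 0.05 over all tested probe sets.

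**Figure D3:**
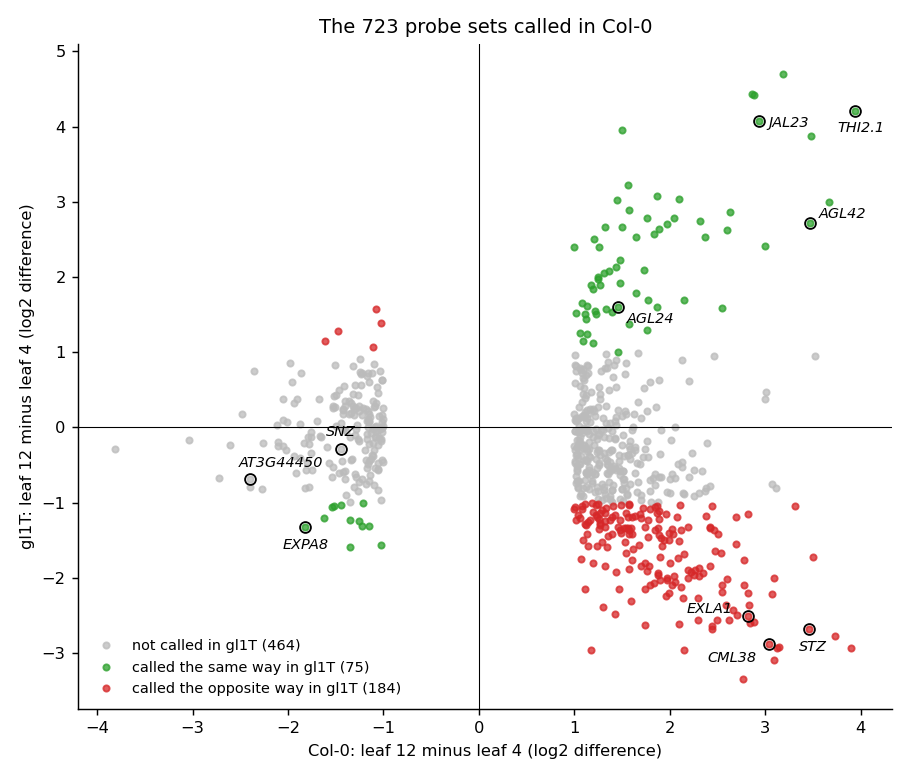
Log2 difference of leaf 12 minus leaf 4 in Col-0 (horizontal) and in gl1T (vertical) for the 723 probe sets called in Col-0, one point each. Of these, 75 were called the same way in gl1T (green), 184 the opposite way (red) and the others were not called (grey), and the early genes STZ and CML38 lie at the lower right with EXLA1.

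The 75 probe sets called alike in both lines held 34 named genes, 31 of them higher in leaf 12. JAL23 (AT2G39330), a jacalin-related lectin, had 187, 172 and 201 in leaf 12 and 21.9, 21.8 and 14.2 in leaf 4 (2.93 ± 0.15), and rose by 4.07 in gl1T. Along the Col-0 rosette its mean was 427, 308, 225, 147 and 131 in leaves 2, 4, 6, 8 and 10 and 187 in leaf 12. The petiole of leaf 7 had 471. AT3G28500 had 344, 344 and 340 in leaf 12 and 38.6, 46.2 and 29.0 in leaf 4 (3.003 ± 0.18), and 229, 181 and 182 against 29.2, 38.0 and 29.4 in gl1T (2.41). Its mean of 343 in leaf 12 was the highest of the 20 groups, followed by 292 in cauline leaves, 198 in gl1T leaf 12 and 84.5 in leaf 10, and no other group passed 57.0. AT4G19430 had 281, 280 and 246 against 33.6, 25.4 and 36.6 (2.86 ± 0.21), and in gl1T leaf 12 it had 433, 546 and 551 (4.43 ± 0.21).

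LCR69 (AT2G02100), a small cysteine-rich protein of the defensin type, was bright throughout. It had 2229, 2348 and 2180 in leaf 12 and 967, 1014 and 946 in leaf 4 (1.201 ± 0.099), and rose by 1.13 in gl1T. Its Col-0 means went from 301 in leaf 2 over 619, 737, 1054 and 1492 in leaves 4, 6, 8 and 10 to 2252 in leaf 12, the highest of the 20 groups. The plantacyanin gene ARPN (AT2G02850), a small copper protein, had 181, 214 and 206 against 38.2, 49.98 and 39.1 (2.09 ± 0.17) and was at 16.4 to 38.6 in leaves 2 to 10. The drought-induced DI21 (AT4G15910) rose by 1.77 ± 0.15 in Col-0 and 2.78 in gl1T. Other locus codes with no further name that rose in both lines were AT1G54020 (2.63 ± 0.23), AT1G62500 (2.60 ± 0.22), AT3G13175 (2.32 ± 0.22), AT4G10270 (2.15 ± 0.19) and AT2G33850 (1.83 ± 0.21). The leaf 4 arrays of AT1G54020, at 1.77, 1.72 and 1.95, lay below the added constant. The level of AT2G33850 differed between the lines, at 530 ± 87.5 in leaf 12 of Col-0 and 38.0 in that of gl1T.

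The 3 named genes that fell in both lines were EXPA8, AT1G62510 and PDF1.2. EXPA8 (AT2G40610), an alpha-expansin that loosens cell walls, had 54.2, 40.8 and 31.7 in leaf 12 and 161, 161 and 165 in leaf 4 (-1.82 ± 0.13, adjusted p = 2.12e-17). In gl1T the arrays read 107, 151 and 159 in leaf 12 and 368, 344 and 346 in leaf 4 (-1.32 ± 0.13), a higher level at both positions. AT1G62510 had 13.7, 26.2 and 18.1 against 54.2, 79.4 and 67.3 (-1.54 ± 0.16).

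Of the 12 largest decreases of named genes, 8 also fell between the short-day sets 87 and 90, where 1.97% of tested probe sets rose and 4.04% fell. In gl1T 2 of the 12 also fell, beside 2.2% of tested probe sets. The test between the lines passed for 10, but the Col-0 difference by which these genes were chosen is 1 term of it. AT3G44450 had 52.8, 47.4 and 44.4 in leaf 12 and 298, 272 and 270 in leaf 4 (-2.40 ± 0.098, adjusted p = 2.09e-27). Leaf 4 at 1 cm was the highest and leaf 12 the lowest of the 20 groups for it. Between these ends its Col-0 means were 95.3, 93.3, 89.2, 73.9 and 60.2 in leaves 2, 4, 6, 8 and 10, and gl1T had 142 in leaf 12 and 233 in leaf 4 (-0.69 ± 0.098).

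AFR (AT2G24540), an F-box protein of phytochrome A signalling, had 31.1, 24.1 and 29.9 in leaf 12 and 104, 130 and 124 in leaf 4 (-1.86 ± 0.14). In gl1T leaf 12 was the higher one, at 145, 117 and 93.8 against 70.8, 65.1 and 68.8 (0.73 ± 0.14, below the limit of 1), and the lines differed by -2.59 ± 0.19. The remaining large decreases were locus codes without a further name. They were AT1G13650 (-2.27 ± 0.15), AT1G20070 (-2.11 ± 0.17), AT1G55960 (-2.05 ± 0.13), AT3G01060 (-1.88 ± 0.067), AT5G57345 (-1.81 ± 0.082), AT5G35970 (-1.76 ± 0.072), AT5G55620 (-1.75 ± 0.094) and AT5G56100 (-1.53 ± 0.12). AT5G35970 had 149, 144 and 133 in leaf 12 and 518, 473 and 497 in leaf 4, and its gl1T difference was -0.13 ± 0.072.

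Genes of the cell wall moved in both directions. Of 11 measured expansin genes, 2 rose and 2 fell, with a median of 0.16. The expansin-like EXLA1 (AT3G45970) had 391, 364 and 426 in leaf 12 and 53.8, 51.3 and 46.6 in leaf 4 (2.82 ± 0.084, adjusted p = 2.41e-33). In gl1T it fell by 2.52, from 185, 177 and 179 to 22.2, 31.5 and 26.3. Leaf 12 was low for EXLA1 when set beside the other rosette leaves of Col-0, which had 774 in leaf 10 and 1371 to 1793 in leaves 2, 4, 6 and 8. EXLA3 (AT3G45960), dim in both leaves, rose by 1.01 ± 0.22 and lost its call with quantile normalization (0.97), with the constant 4 times larger (0.42), without the first array of leaf 4 (0.96) and without the first or the third of leaf 12 (0.83 and 0.96). The beta-expansin EXPB1 (AT2G20750) fell, at 23.6, 21.9 and 6.72 against 59.0, 55.2 and 50.7 (-1.47 ± 0.22), with no fall in gl1T (0.50).

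Among 7 measured xyloglucan endotransglucosylase genes, which cut and rejoin the hemicellulose of the wall, XTH18 (AT4G30280) rose, from 4.72, 5.60 and 7.97 to 33.2, 53.7 and 49.4 (2.06 ± 0.24). The others had differences from -0.04 to 0.64. A pectin methylesterase, ATPMEPCRB (AT4G02330), rose from 51.6, 49.9 and 51.6 to 260, 288 and 281 (2.30 ± 0.095), and was at -0.88 in gl1T. EXO (AT4G08950), a brassinosteroid-induced protein that promotes growth, was among the brighter genes. It had 1551, 1531 and 1553 in leaf 12 and 348, 287 and 329 in leaf 4 (2.25 ± 0.071), and was at -0.57 in gl1T. ARL (AT2G44080), which promotes cell expansion in organ growth, had 203, 212 and 213 against 41.9, 48.3 and 44.2 (2.08 ± 0.11). Its leaf 12 mean of 210 was the highest of the 20 groups, and gl1T leaf 12 had 61.6. Of the genes in this paragraph, the test between the lines passed for all 4 named as risers, whose rise in Col-0 is 1 term of that test.

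Genes of cell division did not pass. None of 6 measured cell cycle genes of the 33 listed rose or fell, and their median difference was 0.35. The Aurora kinase gene AUR2 was at 0.66 ± 0.15 (adjusted p = 0.000326), AUR1 at 0.39 ± 0.12, the topoisomerase TOPII at 0.50 ± 0.24, AUR3 at 0.31 ± 0.19, the histone HTB2 at 0.27 ± 0.099 and the replication factor PRL at -0.14 ± 0.12. Their summed signal was 617 to 685 in leaf 12 and 526 to 544 in leaf 4, without overlap. None of 9 tubulin genes and none of 4 histone genes passed, with medians of 0.17 and -0.05.

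Regulators of leaf form were read only in part, and none that was measured passed. Of 12 listed polarity genes 3 were measured, and of 38 listed genes of leaf growth and shape 3 were measured. The polarity genes PHV (0.07 ± 0.15), YAB3 (0.04 ± 0.10) and YAB5 (0.02 ± 0.13) were within 1 standard error of no difference. So were the growth regulators NGA1 (-0.05 ± 0.16) and NGA2 (-0.02 ± 0.15), while AN, which shapes leaf width, was at 0.27 ± 0.11. In the stomatal lineage none of 3 passed. SPCH, which starts the lineage, was at -0.41 ± 0.24 and FMA, which ends it, at -0.50 ± 0.12 (adjusted p = 0.000743), and STOMAGEN, a signal from the mesophyll that raises stomatal number, was at 0.23 ± 0.11. The summed signal of the 2 measured guard cell genes, FMA and AT1G22690, was 579 to 659 in leaf 12 and 546 to 567 in leaf 4. SPCH rose by 1.58 in gl1T and its line difference passed (-1.99).

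**Figure D4:**
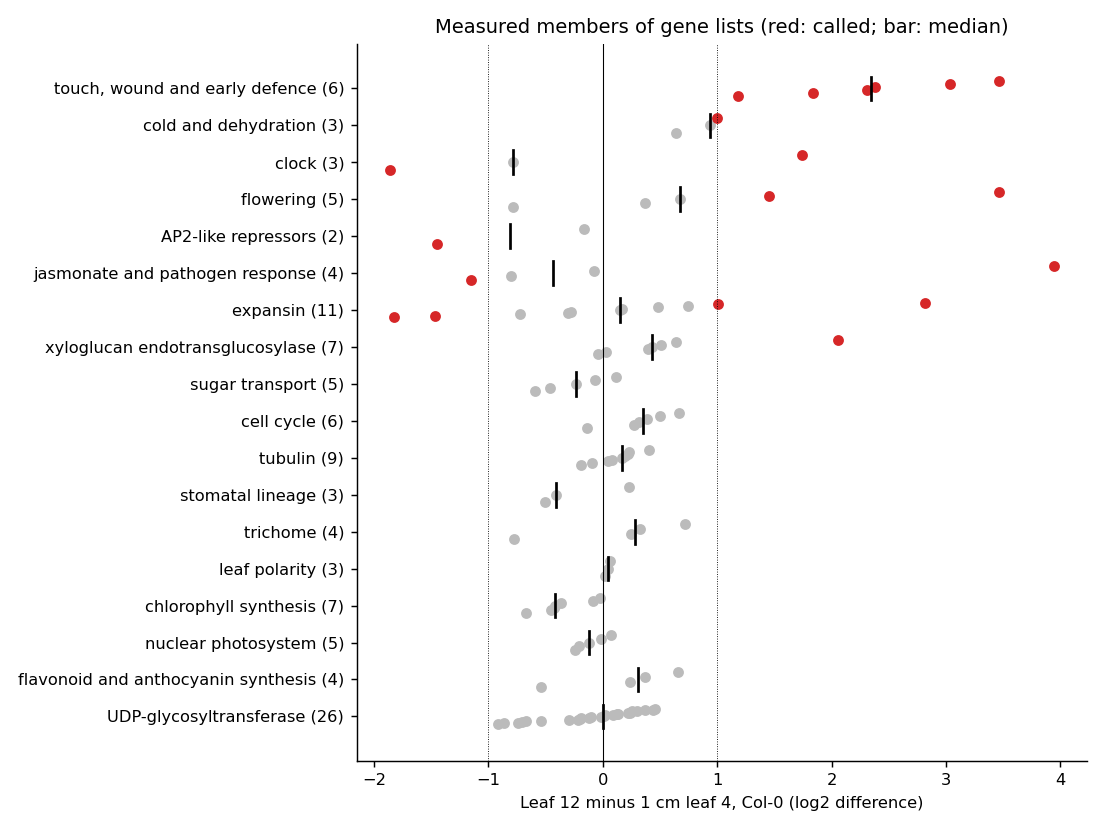
Log2 difference of leaf 12 minus leaf 4 in Col-0 for each measured gene of the lists and families (one point per gene, number measured in brackets), with a bar at the median of each list and dashed lines at the limit of 1 in either direction. All 6 points of the touch, wound and early defence list are called (red), and the lists of cell cycle, tubulin, stomatal, trichome, polarity, chlorophyll and photosystem genes hold no called member.

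The listed photosynthetic and chlorophyll genes stayed under the limit of 1, apart from 1 plastid-encoded gene. None of 7 chlorophyll synthesis genes passed, but each difference was negative, with a median of -0.42. The arrays of 5 lay wholly lower in leaf 12, where 46.2% of all tested probe sets had arrays apart in either direction. The largest difference was in HEME1, a uroporphyrinogen decarboxylase (-0.67 ± 0.087, adjusted p = 9.41e-09 in limma). None of 5 nuclear photosystem genes passed (median -0.12). Of 69 plastid-encoded probe sets, 1 was called and the median was 0.03. This was psbB, a core protein of photosystem II, at 1225, 307 and 1669 in leaf 12 and 1890, 1476 and 2045 in leaf 4 (-1.05 ± 0.33). The low value of the second leaf 12 array decided it, and without that array the difference was -0.32. The call was also lost without the third leaf 4 array (-0.96). Scatter in leaf 12 was wide for some other plastid genes, with an SD of 904 for psbA against 94.2 in leaf 4. For others it was narrower, with 102 against 338 for atpB. The mitochondrial cox1 rose, at 133, 262 and 111 against 42.3, 51.2 and 40.04 (1.70 ± 0.18), with the same array at the high end.

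Flavonoid and anthocyanin genes passed between the lines and stayed under the limit of 1 between the leaves of Col-0. None of 4 passed in Col-0 (median 0.31), where differences were small and of both signs. DFR, an enzyme of anthocyanin synthesis, was at 0.66 ± 0.18 (adjusted p = 0.00315 in limma). The flavonoid glucosyltransferase UGT78D2 was at -0.54 ± 0.12 (adjusted p = 0.000243) and UF3GT at 0.37 ± 0.14 (adjusted p = 0.0271). In gl1T all 4 rose, with a median of 2.34, and all 4 passed the test between the lines. The cytokinin response regulators ARR15 (0.02 ± 0.21) and RR16 (0.23 ± 0.14) were level in Col-0 and rose by 1.12 and 1.55 in gl1T. None of 26 glycosyltransferase genes matched by their UGT names was called (median 0.00). IAGLU (AT4G15550), named for the glucosylation of auxin, fell by 1.07 on the log2 scale, from 69.4 ± 4.44 to 30.2 ± 5.42, and did not pass without the second leaf 12 array (-0.95). GTR1 (AT3G47960), a transporter that loads glucosinolates into the phloem, rose from 200, 175 and 209 to 522, 516 and 560 (1.43 ± 0.069), while BCAT4 of glucosinolate synthesis was at -0.85 ± 0.092.

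Of 14 cytochrome P450 genes, CYP71B22 (AT3G26200) rose by 1.32 ± 0.11 and CYP71B26 (AT3G26290) fell by 1.44 on the log2 scale. The mean of CYP71B22 climbed from 23.98 in leaf 2 to 271 in leaf 12, the highest of the 20 groups. The vacuolar sugar transporter gene SWEET2 (AT3G14770) fell from 188, 204 and 200 to 83.4, 70.8 and 75.9 (-1.30 ± 0.090). None of the 5 listed sugar transporters passed, with SWEET4 at -0.59 ± 0.13 and SWEET11, an exporter of sucrose to the phloem, at -0.07 ± 0.062.

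Cold, clock and light genes gave single changes. COR27 (AT5G42900), a cold-induced regulator of the clock, had 138, 150 and 151 in leaf 12 and 39.4, 43.1 and 36.1 in leaf 4 (1.74 ± 0.097), and was at -0.29 in gl1T. The chloroplast cold protein COR15A (AT2G42540) rose from 52.3 ± 10.1 to 110 ± 3.58 (1.00 ± 0.11) and by more in gl1T (2.39). It lost its call without the first array of leaf 4 (0.85) or of leaf 12 (0.98). COR47 was at 0.94 ± 0.071 and COR15B at 0.64 ± 0.12, both under the limit of 1. The dehydrin gene LTI30 (AT3G50970) rose by 1.44 ± 0.13. HYH (AT3G17609), a bZIP factor of light signalling and a homologue of HY5, had 35.6, 31.6 and 28.9 in leaf 12 and 69.4, 69.0 and 73.2 in leaf 4 (-1.01 ± 0.14), and was at 0.63 in gl1T. Its call was lost without the third array of leaf 4 (-0.99) or of leaf 12 (-0.95). The hour of harvest is not labelled, so its part in the COR27, GI and AFR values was not tested.

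Further genes with symbols were named after their values were seen. The methionine sulfoxide reductase genes MSRB5 (AT4G04830), at 262, 207 and 250 against 53.6, 59.0 and 50.1 (2.02 ± 0.10), and MSRB9 (AT4G21850, 1.47 ± 0.14) rose. The autophagy gene ATG8E (AT2G45170) rose by 1.05 ± 0.14 but did not pass without the second leaf 4 array (0.99) or the third leaf 12 array (0.94). QQS (AT3G30720), an orphan gene that affects starch, rose by 1.05 ± 0.13. In the senescence list WRKY53 was the riser among 4 measured genes, SAG101 was at 0.93 ± 0.16, WRKY6 at 0.47 ± 0.18 and SAG29 at -0.08 ± 0.27. The iron-responsive BHLH101 (AT5G04150) was dim and rose by 1.06 ± 0.29 with wide spread, at 14.5, 13.6 and 17.98 against 1.86, 9.23 and 2.65. It did not pass without the first (0.88) or the third (0.95) leaf 4 array or the third leaf 12 array (0.98). Of the 55 called genes with a symbol other than a locus code, 44 rose, 11 fell and 43 passed the test between the lines. Their difference in Col-0 is 1 term of that test, so the count of 43 only describes these genes.

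Part of the changes also separated the short-day rosettes. Over all tested probe sets, 1.97% were higher in set 90 than in set 87 and 4.04% were lower. Of the 531 probe sets that rose from leaf 4 to leaf 12, 64 were also higher in set 90 than in set 87, 12.1% of the first and 20.5% of the second list, and 25 were lower. Of the 192 that fell, 62 were also lower in set 90, 32.3% and 9.72% of the lists, and 2 were higher. Among the 75 probe sets called alike in Col-0 and gl1T, 33 had the same call in the short-day sets. THI2.1 (2.59), JAL23 (2.96) and AGL24 (3.87) were higher in set 90 and SNZ (-1.01), EXPA8 (-2.28) and AT3G44450 (-1.56) lower, while AGL42 (-0.04), STZ (-0.09) and CML38 (-0.27) did not differ beyond the limit.

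The mean signals in all 20 groups were ranked for each probe set. Among the 531 probe sets that rose, leaf 12 had the highest of the 20 means for 18 (3.39%), beside 1.51% of all tested probe sets. Cotyledons had the highest for 105 (19.8%, beside 3.07%) and senescing leaves for 87 (16.4%, beside 29%). Leaf 4 at 1 cm had the lowest mean for 100 of the 531 (18.8%, beside 4.07%). Among the 192 that fell, leaf 12 had the lowest mean for 50 (26%, beside 2.26%) and senescing leaves for 54 (28.1%, beside 24.4%). Cauline leaves had the highest mean for 36 of these (18.8%, beside 7.6%) and leaf 4 at 1 cm for 20 (10.4%, beside 5.59%). Of the 12 named genes with the largest increases, 5 were highest in cotyledons, and of the 12 with the largest decreases, 4 were lowest in leaf 12. The choice of probe sets by leaf 12 against leaf 4 fixes part of the shares of these 2 leaves. The ranks are given as a description, with no test.

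**Figure D5:**
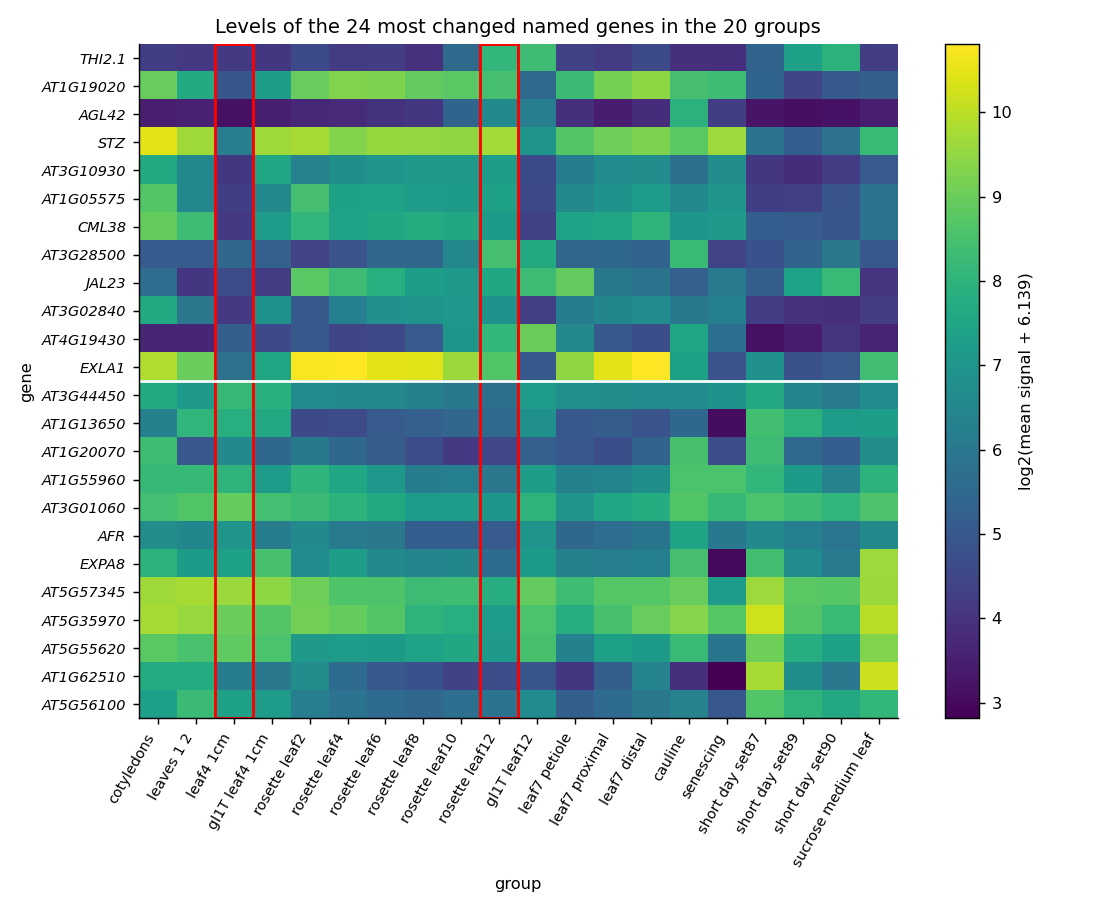
Mean level, as log2(signal + 6.139), of the 12 named genes with the largest increases (above the white line) and the 12 with the largest decreases in each of the 20 groups, with leaf 4 at 1 cm and leaf 12 of Col-0 framed in red. STZ, CML38 and EXLA1 are dark in leaf 4 at 1 cm and brighter in the neighbouring Col-0 groups, whereas THI2.1 and AT3G28500 are bright in leaf 12 and dark in most others.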

How the data were processed

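The deposited values are intensities per probe set on a linear scale, made by the authors with MAS5, per the submitters' processing notes. No source used here gives its version or scaling. The mean after trimming 2% at each end was 100 on every array, and no further normalization was applied.

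Of 22810 probe sets, 64 controls were left out. A probe set was tested where every array of 1 or more of the 20 groups had it above that array's 40th percentile. These 15808 were tested with limma 3.58.1 in R 4.3.3 on log2(value + 6.139), all 60 arrays, intensity trend, 40 residual degrees of freedom. The annotation named 1 gene for 13513 probe sets, several for 503 (never named here) and none for 8730. Of 347 listed genes, 80 had a named probe set and 74 were tested. Of 95 genes with several tested probe sets, 6 had probe sets that differed in call, and the brightest probe set stands for the gene.

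The named genes were the 12 largest increases and decreases whose arrays did not overlap and whose brighter mean passed the 60th percentile, up to 4 called members per list, and all measured flowering, SPL and AP2-like genes. Others in the text, such as the called genes with symbols, those called alike in both lines and list members that did not pass, were chosen after their values were seen. Members and lists were chosen with earlier results of these data known. Replicate letters did not pair samples: same-letter correlations of deviations from group means ran from -0.025 to 0.055, and others from -0.061 to 0.069. The first array of another set, whose tissue label disagrees with its title, was kept by title and enters only the pooled spread. The code was tested on simulated data. A planned search for promoter motifs was not run, as no sequences were used here. The number of arrays limits the precision. Figures were drawn with matplotlib 3.10.9.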

Additional observations from a re-analysis of the deposited data

Results flagged for a closer look

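The leaf 12 to leaf 4 difference of 61 of the 98 genes described differed between Col-0 and gl1T in the limma test of that difference (adjusted p below 0.05 and a size of at least 1, which 8.2% of all tested probe sets passed). Most of the 98 were chosen for a large difference in Col-0, which is 1 term of this test, so the share among them is not to be read against that of all probe sets. Values are Col-0 minus gl1T on the log2 scale. A positive value means that the difference was higher in Col-0 than in gl1T. With such a value stood first the early touch, wound and defence genes and genes that moved with them: STZ (6.15), AT3G10930 (6.07), CML38 (5.92), AT3G02840 (5.47), EXLA1 (5.33), AT1G19020 (5.23), ZCF37 (5.13), AT1G05575 (5.10), AR781 (4.29), CML37 (4.17), ORA47 (4.13), PUB23 (3.90), WRKY53 (3.56) and ATPMEPCRB (3.18). The gl1T differences of these genes were all negative, from -2.96 for ORA47 to -0.88 for ATPMEPCRB. Values between 2 and 3 were found for EXO (2.82), TET8 (2.81), XTH18 (2.74), SRC2 (2.66), MSRB5 (2.64), ARL (2.57), WRKY22 (2.40), PUB22 (2.35), AT5G64120 (2.06) and COR27 (2.04). Smaller positive values were found for OPCL1 (1.97), MSRB9 (1.92), ATG8E (1.77), VPS2.1 (1.75), ACA.l (1.65), GTR1 (1.58), cox1 (1.57), EXLA3 (1.45), LTI30 (1.41), EFR (1.304), TET9 (1.29), QQS (1.27), BHLH101 (1.26) and CCL (1.06).

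Negative values belonged to genes that fell in Col-0 by more than any fall in gl1T and to genes that rose further in gl1T. The first kind were AT5G56100 (-1.005), SNZ (-1.17), SWEET2 (-1.20), AT5G57345 (-1.25), AT1G13650 (-1.45), AT3G01060 (-1.48), CYP71B26 (-1.502), IAGLU (-1.60), AT5G35970 (-1.63), HYH (-1.65), AT5G55620 (-1.69), AT3G44450 (-1.71), AT1G20070 (-1.85), EXPB1 (-1.97), AT1G55960 (-2.15) and AFR (-2.59). The second kind, which rose in Col-0 as well, were DI21 (-1.02), JAL23 (-1.14), AT2G28790 (-1.16), AT4G29700 (-1.33), COR15A (-1.39), AT4G19430 (-1.57) and AT4G17470 (-2.46).

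Groups of 3 arrays were not searched for single outlying arrays. What sets the lines apart was not tested: gl1T leaf 12 has no length in its labels, its first array had a GAPDH 3' to 5' ratio of 3.23 against 1.34 and 1.39 on the others, and the soil note belongs to leaf 4 of Col-0.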

How the results depend on the processing

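No result reversed its direction under any alternative tried. With a constant 4 times larger, fewer probe sets passed: 347 rose and 101 fell in Col-0, 149 rose and 205 fell in gl1T, 227 had a lower line difference, 44 were called alike in both lines, and 108 were higher and 393 lower between the short-day sets. A larger constant shrinks the differences of dim genes by construction. With a constant of 1, 120 probe sets were called alike in both lines and 545 were higher in the short-day comparison, and with plain log2 values 123 and 581. Leaving out 1 of the arrays compared gave 526 to 558 increases and 192 to 218 decreases in Col-0, 311 to 340 and 349 to 374 in gl1T, 830 to 861 higher and 445 to 493 lower line differences, 74 to 80 probe sets called alike, 179 to 188 called oppositely (175 to 183 of them higher in Col-0), and 316 to 344 higher and 638 to 654 lower in the short-day comparison. With an array left out, 6 of 6 touch and defence genes rose in Col-0 each time and 0 cell cycle genes. With the larger constant 6 touch and defence genes rose in Col-0, and 5 in place of 6 fell in gl1T.

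Of the 98 genes described, calls were lost for 25 with the larger constant (SNZ -0.97, PDF1.2 -0.80, EXPB1 -0.95 and WRKY22 0.96 among them), 3 with array weights, 2 with quantile normalization, 1 with only the 6 arrays compared and 5 to 7 with an array left out. AGL19 gained a call with a constant of 1 (1.03) and with plain log2 (1.16). No filter, no intensity trend and a filter at the 60th percentile, which kept 91 of the genes, changed no call among them. The replicate block gave 531 increases and 192 decreases in Col-0, the same counts as without it, and changed no call among these genes. Arrays left out 1 at a time leave 2 in that leaf, and the pooled spread of the other groups then stands in. Signals near the added constant carry no order, which limits AGL42, CML37, BHLH101 and EXLA3 in leaf 4.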
